A study of Mus musculus with 8 samples.

Results

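Csf1, Il34, Csf1r, Csf2, Csf2ra and Csf2rb encode the growth factors that make and maintain macrophages and the receptor chains for them. They were taken by symbol from the gene count table of mouse tumours, where each of the 6 symbols stood on 1 of 57132 rows. The samples were subcutaneous tumours of KPC, a murine pancreatic cancer model, from which bulk RNA depleted of ribosomal RNA was sequenced. The control group, 4 libraries, received PBS (buffered saline). The treated group, 4 libraries, received Ce6@D4-EV and light, called PDT (photodynamic therapy) below. Ce6 is chlorin e6, a photosensitiser that turns oxygen reactive under light. D4-EV is the carrier, given by its label alone. The labels give no strain, age, light dose or time of harvest, and no arm with light alone or with carrier kept dark was analysed here. The labels describe the tissue as sorted without naming a gate, and leave unsaid whether each sample was a different animal. The p-values therefore measure the spread between these samples, which may be technical.

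Total gene counts ran from 35742024 to 40337306 in PBS and from 39026840 to 48804713 in PDT. Values are counts per 1000000 of the scaled library (CPM), given as mean ± SD over 4 libraries, and log2 differences are PDT minus PBS ± standard error (SE). PBS 1 stood apart from the other 7 libraries on the first principal component, at −111.5 against −8.53 to 37.2. PBS 3 held the least macrophage marker RNA, with 18 markers summing to 2211 CPM against 3396 to 4296 CPM in the other PBS libraries. In bulk RNA, fewer cells of a type and less RNA per cell cannot be told apart.

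Macrophages depend on signals through CSF1R, a receptor tyrosine kinase with a pair of ligands. CSF1 is made by stromal, endothelial and tumour cells, and IL34, which resembles it in fold and binds the same receptor, is best known from skin and brain. GM-CSF, encoded by Csf2, acts through a separate receptor made of a specific alpha chain, Csf2ra, and a beta chain, Csf2rb, which is shared with the receptors for interleukin-3 and interleukin-5 and signals through JAK2 and STAT5. In tumours these factors are known for recruiting and shaping macrophages, monocytes and granulocytes.

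None of the 6 genes passed an adjusted p of 0.05 in PDT against PBS (edgeR's quasi-likelihood test, Benjamini-Hochberg over all genes). All 3 receptor chains and the ligand Csf1 had a higher mean in PDT, by 1.21-fold to 1.43-fold, and the ligands Il34 and Csf2 had a lower one. The count of 0 of 6 stands beside a background in which 0.235% of 16588 tested genes were called, 39 genes, of which 27 were higher (0.163%) and 12 lower (0.0723%). With GC content and transcript length corrected for, the same fit called 14 genes, 3 higher and 11 lower, and with 1 library left out it called 0 to 122. The GC and length correction moved the median log2 difference over all tested genes to −0.079, from −0.0022. Values given below with that correction were not re-centred. All 6 genes had enough reads to be tested. Csf1r and Csf2ra had an unadjusted p under 0.05, both higher, as did 16.5% of tested genes, 8.63% higher and 7.87% lower. Only Csf1r, among the 6, had groups that did not overlap, which held for 10.1% of tested genes, 5% with PDT above and 5.12% with PDT below. DESeq2 and limma-voom also called 0 of the 6, against 6.36% and 1.01% of the genes they tested. The 6 genes kept their direction in all 17 alternative fits. Their median log2 fold change was 0.28, against −0.0022 over all tested genes.

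**Figure D1:**
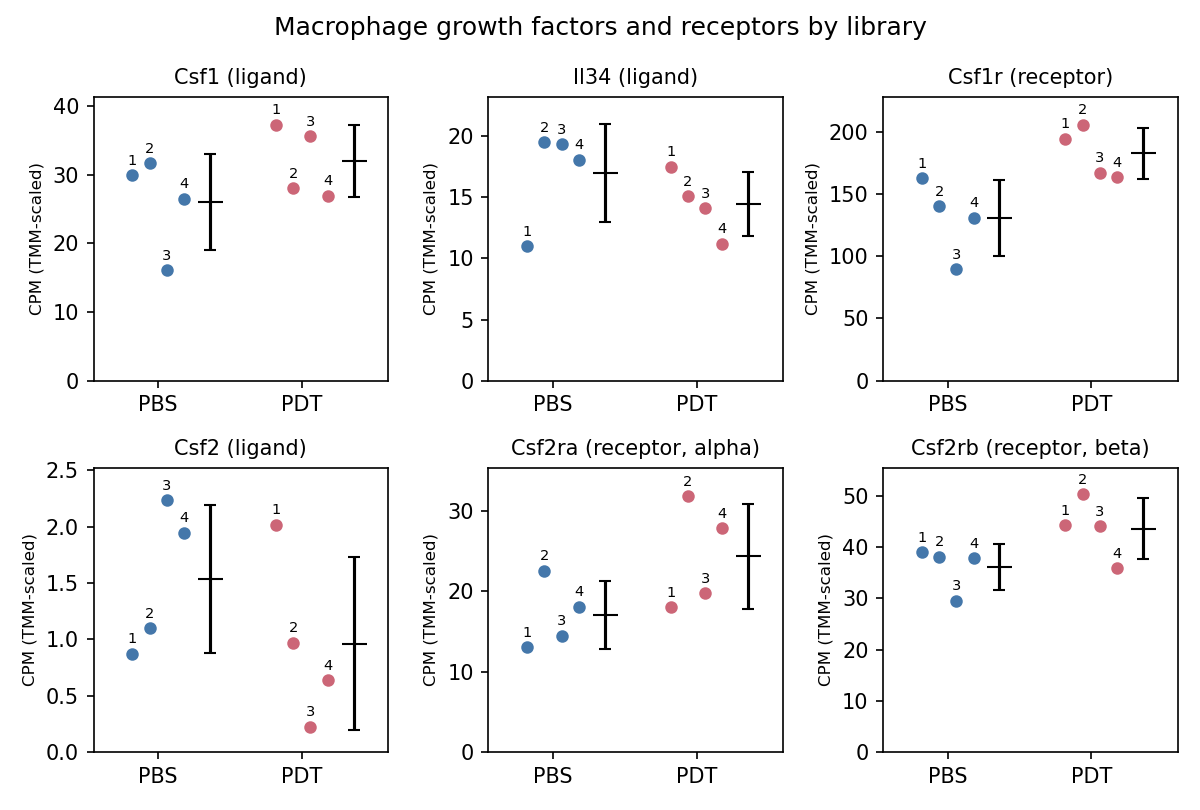
Level of each gene in each library, in CPM of the TMM-scaled library on an axis from 0, with PBS in blue, PDT in red, replicate numbers beside the points and the mean ± SD of 4 libraries in black. The 4 PDT points of Csf1r lie above the 4 PBS points, the nearest being 163.3 and 162.5 CPM, and the groups of the other 5 genes overlap.

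Csf1r was the most abundant of the 6 genes for its length in all 8 libraries, and Csf2 the least abundant in all 8. Levels were compared between genes only as CPM per kilobase of annotated exon. On this scale Csf1r was at 22.6 ± 5.27 in PBS and 31.6 ± 3.58 in PDT (SD, n = 4). Averaged over the 8 libraries, its level per kilobase lay at percentile 88.4 of 16274 tested genes with a known length. Il34 followed in PBS at 8.67 ± 2.06 CPM per kilobase, and Csf2ra led the remaining genes in PDT at 8.48 ± 2.28. Csf2ra, Csf2rb and Csf1 lay close together in PBS, at 5.94 ± 1.48, 4.97 ± 0.608 and 4.93 ± 1.32 CPM per kilobase, and their ranges overlapped. Csf2 was at 1.92 ± 0.821 CPM per kilobase in PBS and 1.20 ± 0.959 in PDT.

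The order of the middle genes depended on the length used. Il34 exceeded Csf1 per kilobase in 7 of 8 libraries with the union of annotated exons, the exception being PBS 1, and in 5 of 8 with the longest annotated transcript. Per kilobase of exon the receptor Csf1r exceeded its ligand Csf1 by 4.04-fold to 6.71-fold within a library, and Il34 by 1.57-fold to 5.003-fold. Which isoforms the tumours used was not measured.

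**Figure D2:**
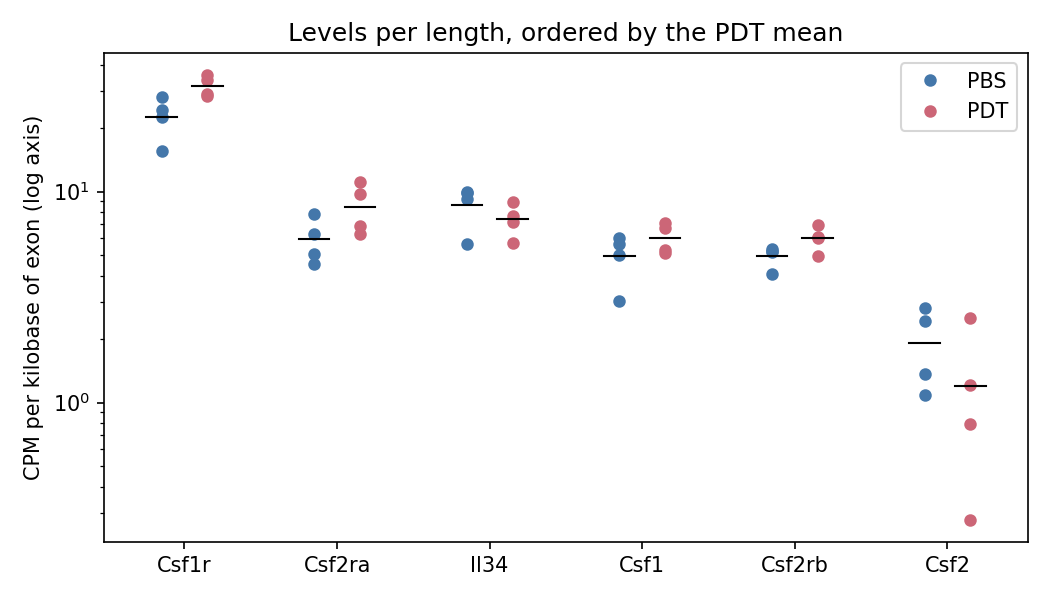
Level of each gene in CPM per kilobase of annotated exon on a log axis, with 4 PBS libraries in blue, 4 PDT libraries in red and a black line at each group mean. Csf1r lies above the other genes and Csf2 below them in every library, and Csf2ra, Il34, Csf1 and Csf2rb overlap.

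Csf1 (ENSMUSG00000014599), the main growth factor of macrophages, drew between 612 and 1330 reads per PBS library and between 1100 and 1682 per PDT library. Its level was 29.9, 31.7, 16.1 and 26.5 CPM across PBS 1 to PBS 4, against 37.3, 28.0, 35.6 and 26.9 across PDT 1 to PDT 4. PDT 2 and PDT 4 lay inside the PBS range, and PBS 3 was the low library. The means were 26.1 ± 6.99 and 31.97 ± 5.24 CPM (log2 difference 0.29 ± 0.21, edgeR adjusted p = 0.54). Its 95% interval ran from −0.16 to 0.75, without PBS 3 the difference was 0.12, and with the GC and length correction it was 0.17.

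Il34 (ENSMUSG00000031750), the alternative ligand of CSF1R, drew between 405 and 818 reads per PBS library and between 459 and 790 per PDT library. Its level was 11.02, 19.5, 19.4 and 18.1 CPM across PBS 1 to PBS 4, against 17.5, 15.1, 14.1 and 11.2 across PDT 1 to PDT 4. PBS 1 was far below the other PBS libraries, and all 4 PDT values lay between them. The fitted log2 difference, −0.23 ± 0.22, had an edgeR adjusted p = 0.66, with a 95% interval from −0.70 to 0.24. It was −0.39 without PBS 1 and −0.52 with the GC and length correction (adjusted p = 0.257). Keratinocytes are a known source of Il34, and of 7 epidermal genes 3 were tested and 0 called. Those genes summed to 14.5 to 98.99 CPM in PBS and 14.3 to 52.0 CPM in PDT, highest in PBS 3 and PDT 4. Il34 was at 19.4 CPM in PBS 3, close to the 19.5 CPM of PBS 2, and at 11.2 CPM in PDT 4, the lowest of its group. The part of skin in the Il34 values was not tested.

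Csf1r (ENSMUSG00000024621), the receptor for both ligands and a gene of macrophages and monocytes, drew between 3411 and 5972 reads per PBS library and between 6682 and 8773 per PDT library. Its level was 162.5, 139.9, 89.7 and 131 CPM across PBS 1 to PBS 4, against 194, 206, 167 and 163.3 across PDT 1 to PDT 4. All 4 PDT libraries exceeded all 4 PBS libraries, but PDT 4 exceeded PBS 1 by less than the spread within either group. The mean was 1.40-fold higher, at 131 ± 30.4 against 183 ± 20.7 CPM (log2 difference 0.48 ± 0.17, edgeR adjusted p = 0.191). The 95% interval ran from 0.11 to 0.86, unadjusted for the number of genes. Without PBS 3 the difference was 0.34, and without PBS 1 it was 0.61. With the GC and length correction it was 0.37 (adjusted p = 0.426).

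Markers of macrophages and monocytes were higher in the same libraries as Csf1r. All 18 listed markers were tested and had a positive log2 fold change, with a median of 0.51, and 1 of them, Cd68, passed in edgeR, against 7 by DESeq2 and 3 by limma-voom, beside 0.235%, 6.36% and 1.01% of all genes. Cd68, a lysosomal glycoprotein, rose by 0.85 ± 0.15 on the log2 scale (SE, adjusted p = 0.0497 by edgeR), and lost its call with any 1 library left out and with the GC and length correction (0.53, adjusted p = 0.174). The other markers with the smallest p were Ly6c2, of inflammatory monocytes, at 2.46 ± 0.44 (adjusted p = 0.051), and Ms4a7, of macrophages, at 1.11 ± 0.21 (0.0566). The 18 markers summed to 2211 to 4296 CPM in PBS and 5179 to 6940 CPM in PDT. Lyz2 alone made up most of these sums, averaging 1855 CPM of 3454 in PBS and 3553 CPM of 5914 in PDT. Within each library, Csf1r was set against the mean log2 CPM of these markers, a ratio in which library scaling cancels. It was 1.177, 0.993, 1.126 and 1.076 across PBS 1 to PBS 4, against 0.870, 0.858, 0.917 and 0.988 across PDT 1 to PDT 4. The ratio was lower in all 4 PDT libraries, by −0.18 on average (two-sided exact permutation p = 0.0286, the smallest that 70 assignments allow, and 0.129 adjusted over 9 ratios). With each library left out the difference ran from −0.22 to −0.16. Csf1r was thus higher in PDT in CPM and lower relative to the marker list. Neither difference passed after adjustment, and no single ratio could pass when adjusted over 9. The marker mean weights each marker equally, including Ly6c2, at 1.97 CPM in PBS and higher by 2.46. The median difference of the markers, 0.51, was close to that of Csf1r, 0.48. A ratio without Ly6c2 was not computed. The marker list was chosen with earlier results of these data known.

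**Figure D3:**
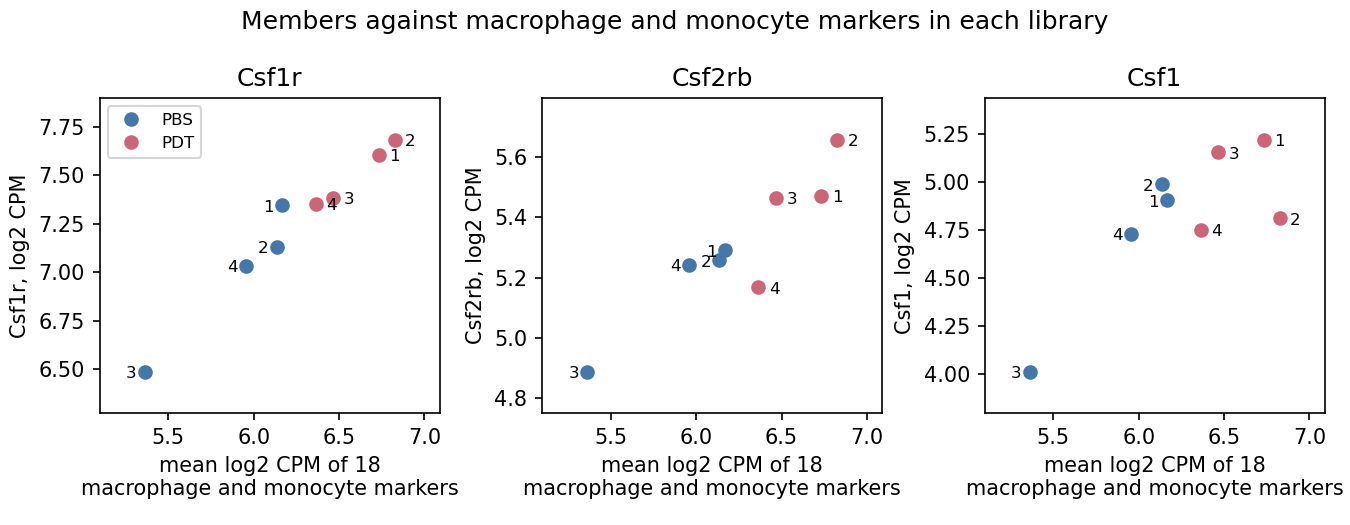
Csf1r, Csf2rb and Csf1 in log2 CPM against the mean log2 CPM of 18 macrophage and monocyte markers, 1 point per library, with PBS in blue, PDT in red and replicate numbers beside the points. PBS 3 is lowest on both axes in all 3 panels, and the ratio of Csf1r to the markers is lower in each PDT library than in each PBS library.

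Csf2 (ENSMUSG00000018916), which encodes GM-CSF, had the fewest reads of the 6 genes. It had 32, 46, 85 and 67 reads across PBS 1 to PBS 4, against 91, 38, 10 and 26 across PDT 1 to PDT 4. The levels were 0.871, 1.10, 2.23 and 1.95 CPM in PBS and 2.02, 0.968, 0.223 and 0.635 CPM in PDT. PDT 1 reached the upper PBS libraries, and PDT 3 and PDT 4 lay below all of PBS. The means were 1.54 ± 0.657 and 0.961 ± 0.767 CPM (log2 difference −0.68 ± 0.70, edgeR adjusted p = 0.697). The 95% interval, from −2.20 to 0.85, covers changes in either direction. Single libraries moved the value, to −1.32 without PDT 1 and −0.34 without PDT 3, and limma-voom gave −1.36.

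Csf2ra (ENSMUSG00000059326), the chain that binds GM-CSF specifically, drew between 480 and 946 reads per PBS library and between 812 and 1248 per PDT library. Its level was 13.1, 22.6, 14.5 and 18.1 CPM across PBS 1 to PBS 4, against 18.001, 31.8, 19.8 and 27.8 across PDT 1 to PDT 4. PDT 2 and PDT 4 lay above all PBS libraries, and PDT 1 and PDT 3 inside the PBS range. The fitted log2 difference, 0.51 ± 0.23, had an edgeR adjusted p = 0.291, with a 95% interval from 0.01 to 1.02. It was 0.37 without PDT 2 and 0.26 with the GC and length correction (adjusted p = 0.618).

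The region around the start of Csf2ra is shown with that of the ligand Csf1, as a description. Because the motifs marked below were chosen from the Csf2ra sequence, their contrast with Csf1 is not a test. RefSeq's promoter table (GRCm38.p6) held 3 of the 6 genes. Each stretch spans 300 bases across the annotated start, at chr19:61228369-61228668 for Csf2ra and chr3:107760420-107760719 for Csf1, both on the minus strand. Capitals mark GAGGAA, found in sites of the myeloid factor PU.1, and TGACGTCA, the cyclic AMP response element, searched on both strands and chosen once the Csf2ra sequence had been seen, without overlap between the motifs.
Csf2ra: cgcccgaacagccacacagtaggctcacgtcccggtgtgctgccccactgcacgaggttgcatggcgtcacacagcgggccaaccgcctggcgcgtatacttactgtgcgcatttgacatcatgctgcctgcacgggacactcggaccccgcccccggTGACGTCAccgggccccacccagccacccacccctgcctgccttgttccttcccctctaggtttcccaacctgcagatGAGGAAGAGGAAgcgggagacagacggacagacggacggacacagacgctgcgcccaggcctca
Csf1: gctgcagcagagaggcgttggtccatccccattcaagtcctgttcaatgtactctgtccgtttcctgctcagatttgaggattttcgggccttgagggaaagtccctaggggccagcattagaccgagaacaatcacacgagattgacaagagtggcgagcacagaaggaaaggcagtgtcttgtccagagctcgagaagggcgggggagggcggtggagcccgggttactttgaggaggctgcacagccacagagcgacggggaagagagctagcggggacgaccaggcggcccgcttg
Csf2ra held GAGGAA 2 times in tandem and TGACGTCA 1 time, and Csf1 held neither in this window. Csf2, not shown, also held neither, and Csf2rb2, outside the 6 genes, held GAGGAA 2 times on the reverse strand. Among 32851 promoters of the same length, 28.3% held GAGGAA and 1.79% held TGACGTCA. Spi1, which encodes PU.1, averaged 50.2 ± 11.2 CPM in PBS against 89.2 ± 10.6 CPM in PDT (log2 difference 0.83 ± 0.17, edgeR adjusted p = 0.0609), and the groups did not overlap. Binding of any factor to these stretches was not measured, and a part of Spi1 in the Csf2ra values was not tested.

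Csf2rb (ENSMUSG00000071713), the shared beta chain, varied least of the 6 genes in PBS, with a coefficient of variation of 12.2%. It drew between 1125 and 1602 reads per PBS library and between 1469 and 1998 per PDT library. Its level was 39.1, 38.2, 29.6 and 37.8 CPM across PBS 1 to PBS 4, against 44.3, 50.4, 44.1 and 35.9 across PDT 1 to PDT 4. PDT 1, PDT 2 and PDT 3 lay above all PBS libraries, and PDT 4 inside their range. The fitted log2 difference, 0.27 ± 0.14, had an edgeR adjusted p = 0.386, with a 95% interval from −0.04 to 0.59. It was 0.19 without PBS 3, the library with the least macrophage marker RNA. Relative to the macrophage markers, Csf2rb was lower in all 4 PDT libraries, by −0.42 on the log2 scale (two-sided exact permutation p = 0.0286, 0.129 adjusted over 9 ratios).

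Mice have another beta chain, Csf2rb2 (ENSMUSG00000071714), which serves interleukin-3 alone and arose as a copy of Csf2rb. The copies are so alike that reads can be assigned to the wrong one, and 2 coding stretches are shown for that reason, the 120 bases with the fewest and the most differences in an alignment without gaps there. They come from the GENCODE vM21 transcripts (GRCm38) of neighbouring genes on chromosome 15, and capitals mark bases that differ.
Csf2rb coding bases 2083 to 2202: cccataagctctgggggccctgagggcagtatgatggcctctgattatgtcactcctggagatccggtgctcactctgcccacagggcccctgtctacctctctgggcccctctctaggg
Csf2rb2 coding bases 2083 to 2202: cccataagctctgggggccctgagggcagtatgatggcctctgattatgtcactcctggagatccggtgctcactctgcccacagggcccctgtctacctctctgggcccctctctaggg
Csf2rb coding bases 309 to 428: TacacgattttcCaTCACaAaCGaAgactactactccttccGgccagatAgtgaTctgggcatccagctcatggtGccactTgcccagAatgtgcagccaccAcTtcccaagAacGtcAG
Csf2rb2 coding bases 312 to 431: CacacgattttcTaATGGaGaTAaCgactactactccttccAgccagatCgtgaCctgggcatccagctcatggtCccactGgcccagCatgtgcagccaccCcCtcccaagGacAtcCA
The first pair had 0 differences and the other pair 22. Over 2628 aligned coding bases 95.2% were identical, and the longest identical run was 242 bases. Coding bases numbered 2688 in Csf2rb and 2634 in Csf2rb2, of 7277 and 4740 annotated exon bases. The likeness of the remaining exon bases was not measured. Of all stretches of 100 coding bases in Csf2rb, 11.05% occurred unchanged in a Csf2rb2 transcript, and of those of 50 bases 26.2%. How such reads were counted is unknown, so the split between the copies is uncertain.

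Csf2rb2 was at 25.0, 12.6, 15.7 and 13.3 CPM across PBS 1 to PBS 4, against 19.1, 21.1, 22.1 and 18.9 across PDT 1 to PDT 4. The fitted log2 difference, 0.28 ± 0.22, had an edgeR adjusted p = 0.572, and it was 0.55 without PBS 1, the highest library (adjusted p = 0.162), 0.17 without PBS 2 and 0.12 with the GC and length correction (adjusted p = 0.855). Csf2rb2 took 24.8% to 39.0% of the reads of both beta chains in PBS and 29.5% to 34.5% in PDT. In PBS 1 the share was 39.0% (95% Wilson interval 37.1% to 41.0%), and in PBS 2 it was 24.8% (23.0% to 26.7%). The group means were 31.1 ± 6.83% and 31.9 ± 2.43% (SD, n = 4, two-sided exact permutation p = 0.914, and 0.371 without PBS 1). These intervals cover counting error only, and would be too narrow if each pair contributed 2 reads.

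The balance of ligand and receptor was compared as log2 ratios within each library, 9 in all, and 0 passed after adjustment. No single ratio could have passed. The smallest possible p is 0.0286, and adjusted over 9 it stays above 0.05 unless several ratios reach it together. Csf1r relative to Csf1 differed by 0.18 between the groups (two-sided exact permutation p = 0.343, adjusted p = 0.441). Csf1r relative to Il34 was higher by 0.72 in PDT (exact permutation p = 0.143, adjusted p = 0.3). It was 3.88 in PBS 1, above all PDT libraries, which lay at 3.47 to 3.86, and 2.21 to 2.85 in the other PBS libraries. The difference was 1.03 without PBS 1 and 0.47 without PBS 3. The balance of the ligands, Csf1 relative to Il34, differed by 0.54 (exact permutation p = 0.2, adjusted p = 0.3), from 0.61 ± 0.70 in PBS to 1.14 ± 0.20 in PDT (SD, n = 4). That ratio was at −0.27 in PBS 3 and 1.44 in PBS 1, and all PDT libraries lay between them. Its difference was 0.82 without PBS 1 and 0.25 without PBS 3. Csf1 relative to Csf2 differed by 1.23 (exact permutation p = 0.2), Csf2rb relative to Csf2ra by −0.24 (0.429) and Csf1r relative to Csf2rb by 0.24 (0.0857, and a difference of 0.16 without PBS 3), with adjusted p-values of 0.257 to 0.482. Csf2ra relative to the macrophage markers differed by −0.19 (exact permutation p = 0.543, adjusted p = 0.543). Leaving out 1 library moved several ratios. Csf2ra relative to the markers ran from −0.39 (without PBS 1) to −0.0090 (without PDT 1), and Csf2rb relative to Csf2ra from −0.38 (without PDT 1) to −0.068 (without PDT 4). Csf1r relative to Csf1 ran from 0.064 (without PDT 2) to 0.28 (without PDT 3), and Csf1 relative to Csf2 from 0.66 (without PDT 3) to 1.61 (without PDT 1). These ranges keep their sign.

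Relatives of these receptors were read from lists chosen for this purpose. Of 5 genes of the beta common family 3 were tested and 0 called, with a median log2 fold change of 0.28. Il3ra, the alpha chain for interleukin-3, averaged 33.5 ± 6.33 CPM in PBS against 42.2 ± 6.24 CPM in PDT (log2 difference 0.33 ± 0.16, edgeR adjusted p = 0.339). With the GC and length correction the difference was 0.05 (adjusted p = 0.913). Il5ra, the alpha chain for interleukin-5, was at 42.8 ± 4.58 and 31.8 ± 6.80 CPM (log2 difference −0.43 ± 0.16, edgeR adjusted p = 0.215). Its reads ran from 1111 to 1934 per library. Among eosinophil genes, the granule gene Epx had 0 reads in any library, Prg2 had 0 to 2 and Ear1 0 to 4. Ccr3 had 2 to 62 reads per library and Siglecf 16 to 312. The cell source of Il5ra was not tested. The cytokines were nearly absent, with 0 reads for Il3 in all 8 libraries, which allows up to 0.0872 CPM in PBS 4, and at most 1 read for Il5.

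Of 5 other binding partners and proteases of the ligands and CSF1R, edgeR and limma-voom called 0 and DESeq2 called 1, Trem2, and the median was −0.18. Over all genes edgeR called 0.235%, limma-voom 1.01% and DESeq2 6.36%. Trem2, a lipid receptor of macrophages to which IL34 has been reported to bind, averaged 50.6 ± 17.9 CPM in PBS against 102 ± 18.7 CPM in PDT (log2 difference 1.01 ± 0.24, edgeR adjusted p = 0.089 and 0.00227 by DESeq2), and the groups did not overlap. Adam10, a membrane protease, differed by −0.40 ± 0.14 without overlap (adjusted p = 0.174), and the syndecan Sdc1, which binds IL34, by −0.31 ± 0.18 (adjusted p = 0.419). Sdc1 ran from −0.43 to −0.20 with each library left out, the latter without PBS 3, and was at −0.52 with the GC and length correction. Adam17, the protease that sheds CSF1R and membrane CSF1, was at 44.6 ± 4.91 and 44.97 ± 4.17 CPM.

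Of 8 related growth factors and receptors edgeR called 0, DESeq2 2 (Csf3r and Kitl) and limma-voom 1 (Csf3r), beside 0.235%, 6.36% and 1.01% of all genes. In this list 5 were higher and 3 lower (median 0.23). Csf3r, the receptor for the granulocyte factor G-CSF, averaged 11.8 ± 2.38 CPM in PBS against 30.6 ± 11.1 CPM in PDT (log2 difference 1.37 ± 0.25, edgeR adjusted p = 0.0515 and 6.59e-05 by DESeq2), and the groups did not overlap. Kitl, the ligand of KIT, was at 79.4 ± 19.0 and 49.7 ± 7.09 CPM (log2 difference −0.68 ± 0.18, edgeR adjusted p = 0.102 and 0.0143 by DESeq2), and the groups did not overlap. Pdgfra, a kinase of the same family as CSF1R that marks fibroblasts, differed by 0.36 ± 0.17 (adjusted p = 0.334) and by 0.57 without PBS 1.

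**Figure D4:**
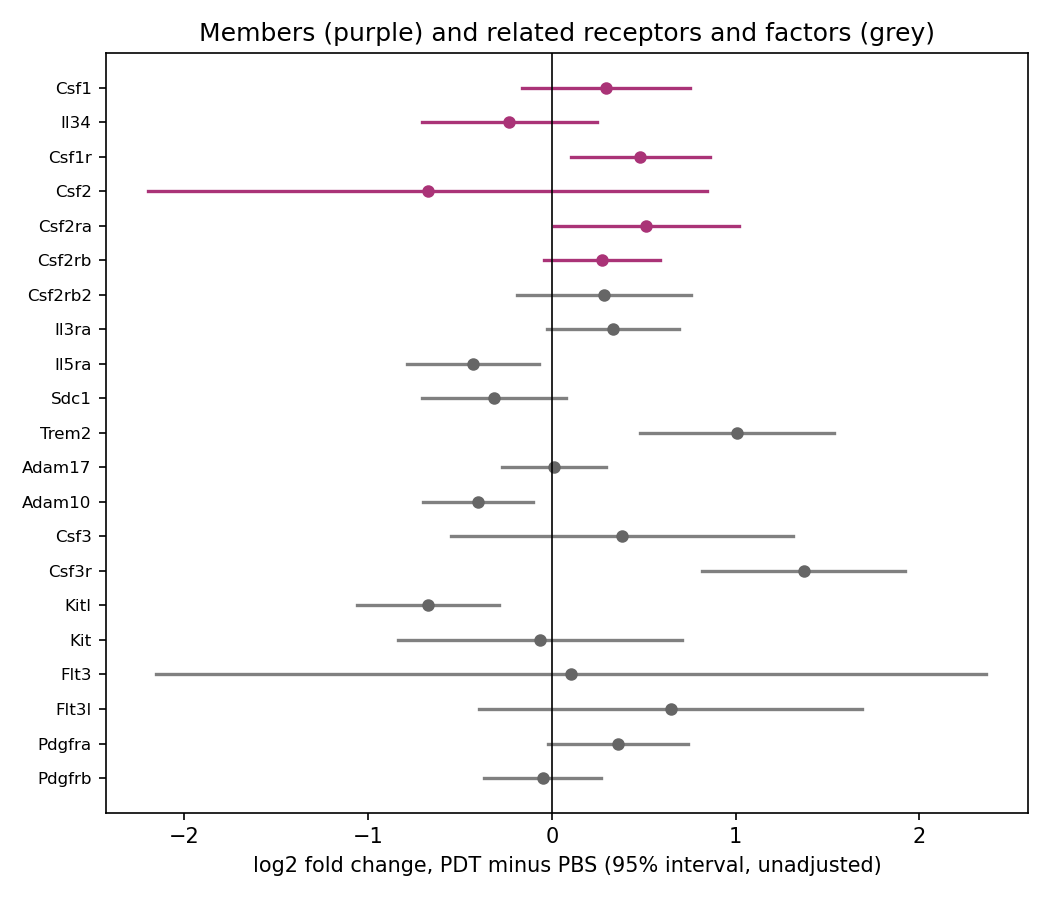
Log2 fold change, PDT minus PBS, with its 95% interval unadjusted for the number of genes, for the 6 genes in purple and the tested genes of 3 lists of relatives in grey, leaving out Ptprz1, which had at most 18 reads in a library. The intervals of Csf1r and Csf2ra lie above 0, and those of Csf1, Il34, Csf2 and Csf2rb include 0.

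Genes that carry the CSF1R signal were more often higher than lower in PDT, 19 of 24 tested, with a median log2 fold change of 0.29 beside −0.0022 over all genes. Of the 24, edgeR called 1, DESeq2 5 and limma-voom 3, beside 0.235%, 6.36% and 1.01% of all genes. Groups did not overlap in 8 of the 24, all higher in PDT, beside 5% of all genes. Vav1, a signalling protein of blood cells, rose from 13.2 ± 3.67 to 32.6 ± 2.55 CPM (log2 difference 1.31 ± 0.21, edgeR adjusted p = 0.0399). It kept its call without PBS 4 or PDT 2, and lost it without any of the other 6 libraries and with the GC and length correction (adjusted p = 0.0697). Tyrobp, the adaptor DAP12, differed by 0.93 ± 0.17 (adjusted p = 0.051), and by 0.61 with the GC and length correction (adjusted p = 0.153). Vav1 and Tyrobp are expressed across myeloid cells, and the macrophage marker sums given above were higher in the same libraries. The part of cell numbers in these differences was not tested.

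Genes of GM-CSF signalling were divided, with 9 of 17 higher, 8 lower and a median of 0.05. The count called was 0 in edgeR, 0 in limma-voom and 2 in DESeq2, beside 0.235%, 1.01% and 6.36% of all genes. At an unadjusted p under 0.05 there were 4 of 17, 2 in each direction, beside 16.5% of all genes. Pim1, a kinase induced through STAT5, averaged 21.5 ± 5.02 CPM in PBS against 34.5 ± 7.11 CPM in PDT (log2 difference 0.68 ± 0.20, edgeR adjusted p = 0.134), and the difference was 0.45 with the GC and length correction. Socs2, a feedback inhibitor also induced by STAT5, was at 70.1 ± 11.8 and 50.2 ± 5.99 CPM (log2 difference −0.48 ± 0.15, edgeR adjusted p = 0.148). Pparg, which GM-CSF induces in alveolar macrophages and which fat cells express, differed by −0.61 ± 0.18 without overlap (adjusted p = 0.125), and by −0.40 without PBS 3. The kinase Jak2 was at 105 ± 11.97 and 101 ± 10.4 CPM.

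Transcription factors of the myeloid lineage were higher in 10 of 11 cases, with a median of 0.53. Of the 11, edgeR called 0, DESeq2 4 and limma-voom 2, beside 0.235%, 6.36% and 1.01% of all genes. Cebpb, a factor of monocytes and of the acute response, averaged 35.5 ± 7.58 CPM in PBS against 67.3 ± 13.3 CPM in PDT (log2 difference 0.92 ± 0.19, edgeR adjusted p = 0.0603). With the GC and length correction Cebpb was higher by 0.51 (adjusted p = 0.175) and Spi1 by 0.53 (adjusted p = 0.249). Maf, a factor of resident macrophages, differed by 0.71 ± 0.17 (adjusted p = 0.0918). Groups did not overlap for Cebpb, Maf, Spi1 and Cebpa, all higher in PDT, which held for 5% of all genes. Cebpa was named after its values were seen. At an unadjusted p under 0.05 there were 6 of the 11, all higher, against 8.63% of all genes in that direction.

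The genes most like each member across the 8 libraries were listed by Pearson's r of log2 CPM among 13200 genes, as a description, since the libraries share group, depth and cell makeup. Csf1r was most like the macrophage genes Fcgr1 (r = 0.99), an Fc receptor, and Adgre1 (0.99), which encodes F4/80, then Themis2 (0.98) and Nrros (0.98). Csf2rb was most like Cd300ld (r = 0.998), a myeloid surface receptor, Tlr8 (0.98), Lilrb4a (0.98) and P2ry6 (0.97). Csf1 was most like AI839979, Abcd2, Armh3 and Sh2b2 (r = 0.96 to 0.98), and Csf2ra most like Zfp46, Grwd1, Umps and Tmcc2 (0.92 to 0.95). Il34 was most like Cdc37l1, Smoc1, Plrg1 and Rbm34 (r = 0.95 to 0.97), and Csf2 most like Zfp943, Zfp30, Pmaip1 and Sars1 (0.94 to 0.97). After the group means were removed, r stayed at 0.96 to 0.98 for the 4 genes of Csf1r and at 0.96 to 0.997 for those of Csf2rb. It was 0.95 to 0.97 for those of Csf1, 0.95 to 0.98 for Il34, 0.93 to 0.98 for Csf2 and 0.87 to 0.97 for Csf2ra. All these genes were picked for a high r. Among the members, Csf1r was most like Csf2rb (r = 0.91) and Csf1 (0.81), whereas Csf2ra and Csf2rb, the chains of 1 receptor, had r = 0.49, and Csf1 and Il34 had r = −0.24. Removing the group means gave r = 0.84, 0.78, 0.17 and −0.097 for these pairs, in that order.

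Markers of other cells that could hold these genes gave 0 calls in edgeR in every list. Of 8 tested neutrophil genes 8 were higher, with a median of 1.35. At an unadjusted p under 0.05 there were 5, beside 8.63% of all genes in that direction. DESeq2 called 1, beside 6.36% of all genes in either direction. None of the 8 had separate groups, and the marker sum was 224 CPM in PBS 3 and 155 CPM in PDT 2. Their smallest p-values were those of Clec4d at 1.58 ± 0.36, Mmp9 at 1.78 ± 0.48 and Cxcr2 at 1.30 ± 0.45 (log2 ± SE, adjusted p = 0.0818 to 0.18 by edgeR). Ly6g and Ngp, with at most 20 and 32 reads in a library, were not tested. Camp had at most 48 reads, and Retnlg was at 0.55 ± 0.67. Of 11 T and NK cell genes 10 were higher (median 1.29), 2 of them at an unadjusted p under 0.05, beside 8.63% of all genes in that direction. Groups did not overlap for 4 of the 11, all higher in PDT, beside 5% of all genes. The 11 genes summed to 10.7 to 20.2 CPM in PBS and 25.3 to 29.8 CPM in PDT. Their smallest p-values were those of Cd3d at 1.39 ± 0.50, Cd8b1 at 2.92 ± 1.16 and Gzmb at 1.62 ± 0.90 (adjusted p = 0.193 to 0.408). Cd8b1 and Gzmb had 0 reads in at least 1 PBS library, with PBS means of 0.255 and 1.21 CPM. Trac, with 102 to 209 reads per library, was the lower gene of the list, at −0.18 ± 0.36. Dendritic cell genes were divided, 3 higher and 6 lower with a median of −0.18, with Itgax at −0.48 ± 0.25, Ccr7 at −0.71 ± 0.44 and Clec9a at −0.78 ± 0.68 (adjusted p = 0.368 to 0.627). Of 6 tested eosinophil and mast cell genes 5 were higher, median 0.62, with Tpsb2 at 0.66 ± 0.24, Siglecf at 1.09 ± 0.68 and Ccr3 at 0.71 ± 0.89. Only 1 of 5 B cell genes had reads enough for a test, Cd79b at 0.22 ± 0.31.

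Stromal and tumour cells, which are known to make Csf1, had no marker called by edgeR. Of 9 fibroblast genes 6 were higher, median 0.34, with Pdpn at 0.70 ± 0.18 and Col1a1 at 0.54 ± 0.18 (log2 ± SE, adjusted p = 0.0978 and 0.165 by edgeR). DESeq2 called 2 of the list, beside 6.36% of all genes. Of 7 endothelial genes 5 were higher, median 0.39, with Tie1 at 0.50 ± 0.22, Egfl7 at 0.39 ± 0.18 and Cdh5 at 0.40 ± 0.20 (adjusted p = 0.287 to 0.355). With the GC and length correction Pdpn was at 0.46, Tie1 at 0.33, Egfl7 at 0.15 and Cdh5 at 0.25. Of 8 epithelial genes 3 were higher, median −0.11, with Cldn4 at −0.66 ± 0.46, Krt19 at 0.34 ± 0.28 and Msln at −0.22 ± 0.19 (adjusted p = 0.533 to 0.638). The epithelial genes summed to 3650 to 7433 CPM in PBS and 3192 to 6362 CPM in PDT, so epithelial marker RNA was detected in all 8 libraries. The epidermal genes had a median of −0.61, with Krt14 at −0.61 ± 0.54, Dsg3 at −1.08 ± 1.40 and Krt10 at 0.05 ± 0.49. All 6 skeletal muscle genes were higher, median 1.63, with Mylpf at 1.85 ± 0.80, Tnnt3 at 2.29 ± 1.01 and Tnni2 at 1.62 ± 0.75 (adjusted p = 0.273 to 0.313). In PBS their sum ran from 52.5 CPM to 1319 CPM in PBS 2. It reached 3275 CPM in PDT 2, where PDT 1, PDT 3 and PDT 4 held 154 to 738 CPM, and PDT 2 also held the highest Csf1r, Csf2ra and Csf2rb. Without PDT 2 the log2 differences of these 3 receptor genes were 0.43, 0.37 and 0.21.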

How the data were processed

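Bulk RNA of 8 tumour samples, 4 PBS and 4 PDT by their titles, was analysed. The values are raw counts in a gene-by-sample matrix that the authors deposited (57132 rows, none pooled). Per the submitters' processing notes, cutadapt 4.6, STAR 2.7.11b and the GRCm39 build were involved. For the counter, its strand setting and the annotation, details were not given in the sources used here. Between 77.9% and 83.8% of counts from 1 to 20 were even, as happens where both reads of a pair are counted, but how pairs were counted is not stated.

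Genes kept by filterByExpr were scaled by TMM and fitted with edgeR 4.0.16 (quasi-likelihood, no covariate, R 4.3.3), with Benjamini-Hochberg adjustment over all tested genes. The code was tested on simulated data. Alternatives used limma 3.58.1 and DESeq2 1.42.0, and others stand in the closing section. Ratios used log2 CPM with a prior count of 2 and an exact permutation over 70 assignments. Exon lengths and GC came from GENCODE vM21 (GRCm38) by identifier, matched for 98.1% of tested genes. The members and the 18 lists (175 entries) were chosen with earlier results of these data known. Named were the members, Csf2rb2, the 3 genes with the smallest p of each list and the 4 genes most like each member with at least 1 CPM, leaving out predicted genes, and 1 of these genes is not reported here. The labels give no batch. The permutation test planned for members with too few reads was not needed.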

Additional observations from a re-analysis of the deposited data

Results flagged for a closer look

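In 13 of 176 groups of 4 libraries checked, 1 library lay far from the other 3 for its group's range, by Dixon's criterion, which chance meets in about 1 group in 20. For Il34, PBS 1 was at 11.02 CPM against 18.1 to 19.5 CPM. For Csf2rb, PBS 3 was at 29.6 CPM against 37.8 to 39.1 CPM.

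PBS 1 also stood apart for Pdgfra, at 47.998 CPM against 28.0 to 30.9, for Tpsb2, at 22.4 CPM against 14.7 to 15.98, and for Smoc1, at 0.435 CPM against 3.95 to 4.15. PBS 3 stood apart for Mmp9 at 63.99 CPM against 17.4 to 24.9, for Krt19 at 948 CPM against 460 to 515 and for Krt10 at 17.98 CPM against 5.26 to 6.26. PBS 2 stood apart for Ly6c2 at 3.96 CPM, Tnnt3 at 79.7 CPM and Tnni2 at 46.7 CPM. In PDT, Col1a1 was low in PDT 1, at 2597 CPM against 3316 to 3324, and Krt14 was high in PDT 4, at 26.6 CPM against 9.35 to 12.2.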

How the results depend on the processing

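The 6 members and Csf2rb2 kept their direction in all 17 alternatives and were called in none, with adjusted p-values of 0.0899 (Csf1r, DESeq2) to 0.911 (Il34, without PDT 4). The 9 ratios also kept their direction and stayed above 0.05 after adjustment under other prior counts and with each library left out. No single ratio could have fallen below 0.05 after that adjustment. The number of called genes, 39, moved to 69 with upper quartile scaling, 534 without a count filter, 88 with at least 1 CPM in 4 samples, 182 with the replicate block, 869 in DESeq2, 167 in limma-voom, 67 with counts divided by 2 and 14 with the GC and length correction. With each library left out it ran from 0 (without PBS 3 or PDT 1, where 2349 and 2162 genes had an unadjusted p under 0.05) to 122 (without PBS 4), with 10, 4, 112, 3 and 3 without PBS 1, PBS 2, PDT 2, PDT 3 and PDT 4. The cause was not tested.

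The replicate block changed no call of a member. Replicate numbers share no stated animal or day, their deviations from the group means correlated at r = 0.04 to 0.07, and none of the 4 PBS libraries correlated best with the PDT library of its number. With the block, Csf1r differed by 0.51 and Csf2ra by 0.51 (edgeR adjusted p = 0.109 and 0.124). The ratios of Csf1r and Csf2rb to the macrophage markers had an exact sign-flip permutation p = 0.125, the smallest that 4 pairs allow. Among other named genes, log2 differences reversed with the GC and length correction for Cd79b (−0.12), Krt19 (−0.0082), Krt10 (−0.26), Armh3 (−0.024), Cdc37l1 (0.10) and Grwd1 (−0.091). The median over all genes was −0.079 with that correction, a larger shift than the reversed values of Krt19 and Armh3. With each library left out, log2 differences ran through 0 for Krt14 (−1.04 to 0.23), Dsg3 (−1.73 to 0.43), Plrg1 (−0.10 to 0.014) and Krt10 (−0.53 to 0.67). Krt14 and Dsg3 reversed without PBS 3 and Plrg1 without PDT 4. Krt10 reversed without PBS 1, PBS 2, PBS 4 or PDT 4. Csf2 had 10 to 91 reads per library and a 95% interval of −2.20 to 0.85. How far depth sets that interval was not tested.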
